A study of Mus musculus with 42 samples.

Results

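The 8 genes described here are Kdm5c, Kdm6a, Ddx3x, Eif2s3x, Utp14a, 5530601H04Rik, Pbdc1 and Usp9x, which were listed because they are known to escape X inactivation in mouse. The list uses no value of these embryos, but it was drawn up with earlier results of these data known. They are 8 of the 1052 X-linked genes listed with both alleles, and of 24083 genes in all. RNA was measured by Smart-seq2, a full-length polyadenylated RNA method that does not keep the strand, in 42 mouse embryo samples. All fathers were PWK/PhJ, so the paternal X carries PWK/PhJ variants in every group.

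In female morulae of genotype Xp XRRa KO (4 samples, C57BL/6N X PWK/PhJ), the region XRRa is deleted on the paternal X. They stand against control female morulae (3 samples) and control male morulae (4 samples) of the same cross. The EedmNull embryos are 13 female E7.5 extraembryonic ectoderm samples. Their mothers were Eedfl/fl with Gdf9-Cre, whose promoter is active in the oocyte, and their fathers were wild-type PWK/PhJ. Eed is a PRC2 gene, part of the Polycomb system that methylates histone H3K27, and the table that holds these embryos lists no control embryos. The wild-type stage series is female, C57BL/6N X PWK/PhJ. Before implantation it holds 3 samples of 8-cell embryos and 3 of morulae, and at E3.5 it has 2 of inner cell mass and 3 of trophectoderm. At E6.5 there is 1 sample of epiblast, with 3 of visceral endoderm and 2 of extraembryonic ectoderm, and at E9.5 1 of yolk sac. The cross ran in 1 direction, so an effect of strain and an effect of parent of origin cannot be told apart.

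In female mammals one X is silenced by the RNA Xist and by chromatin marks that follow it. In mouse the paternal X is silenced first, during cleavage; it stays silent in trophoblast and primitive endoderm, while the epiblast reactivates it and later silences either X at random. Escape genes keep some transcription from the silenced X. Several of them, including Kdm5c, Kdm6a, Ddx3x, Eif2s3x and Usp9x, have a related gene on the Y.

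Each value is an FPKM (fragments per kilobase of transcript, scaled to library size) of 1 allele. The paternal share is the paternal FPKM over the sum of both alleles, given for genes with a sum of at least 1 FPKM. In the stage and morula tables each group has 1 pooled value per allele, so those values carry no error and no difference between groups was tested. The tables hold no counts, so the depth behind a share is unknown, and shares of genes near 1 FPKM are the least secure. Fewer cells with an active paternal X and less RNA per cell cannot be told apart in bulk samples.

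Labels were set beside defining markers. The E3.5 inner cell mass column had Nanog at 157 FPKM, against 30.7 FPKM in trophectoderm, but it also held the trophectoderm keratin Krt8 at 520 FPKM, against 1502 FPKM in trophectoderm. The E6.5 extraembryonic ectoderm column had Elf5 at 124 FPKM and Bmp4 at 64.0 FPKM. It also held the endoderm genes Afp at 40.5 FPKM and Ttr at 65.4 FPKM. Of the epiblast genes it held Pou5f1 at 14.0 FPKM, against 79.4 FPKM in epiblast, Nanog at 7.35 against 9.01 FPKM and Fgf5 at 11.8 against 60.8 FPKM. Esx1, also a trophoblast marker, was at 0.12 FPKM. Visceral endoderm had Afp at 467 FPKM. Of the epiblast genes it held Fgf5 at 91.9 FPKM, against 60.8 FPKM in epiblast, with Nanog at 1.28 FPKM and Pou5f1 at 0.33 FPKM. Of the extraembryonic ectoderm genes it held Eomes at 59.2 FPKM, against 61.0 FPKM in extraembryonic ectoderm, and the other 4 on that list were under 1 FPKM. The part of admixed tissue in the shares of the escape genes was not tested. Zscan4c, a marker of early cleavage, was listed at 0 in every column.

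The promoters of 4 of these genes are shown because they include the gene with the highest share in both E6.5 extraembryonic tissues, a pair that holds the YY1 motif, and a pair of neighbours whose shares parted. RefSeq windows of 300 bases, from 250 bases before to 50 bases after the start site in GRCm38.p6, were found for 7 of the 8 genes; the expression files use mm9, and these coordinates belong to GRCm38.p6 alone. Capitals mark a match to AANATGGC, the core of the motif bound by YY1, searched on both strands. Eif2s3x lies at chrX:94212602-94212901 on the minus strand, Kdm5c at chrX:152232977-152233276 on the plus strand, Pbdc1 at chrX:105079506-105079805 on the plus strand and 5530601H04Rik, its neighbour in the RefSeq gene order, at chrX:105070075-105070374 on the minus strand.
Eif2s3x: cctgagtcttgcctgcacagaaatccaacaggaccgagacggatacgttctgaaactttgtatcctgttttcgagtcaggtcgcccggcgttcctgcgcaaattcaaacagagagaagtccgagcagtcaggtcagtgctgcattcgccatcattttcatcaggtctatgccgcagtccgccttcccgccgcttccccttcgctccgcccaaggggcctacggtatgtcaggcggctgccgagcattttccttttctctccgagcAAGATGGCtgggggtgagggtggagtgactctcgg
Kdm5c: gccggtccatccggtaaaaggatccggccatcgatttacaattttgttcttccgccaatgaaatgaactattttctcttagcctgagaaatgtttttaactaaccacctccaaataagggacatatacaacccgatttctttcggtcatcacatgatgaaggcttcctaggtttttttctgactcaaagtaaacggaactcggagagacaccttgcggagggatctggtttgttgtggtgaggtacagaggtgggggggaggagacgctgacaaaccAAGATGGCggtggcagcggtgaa
Pbdc1: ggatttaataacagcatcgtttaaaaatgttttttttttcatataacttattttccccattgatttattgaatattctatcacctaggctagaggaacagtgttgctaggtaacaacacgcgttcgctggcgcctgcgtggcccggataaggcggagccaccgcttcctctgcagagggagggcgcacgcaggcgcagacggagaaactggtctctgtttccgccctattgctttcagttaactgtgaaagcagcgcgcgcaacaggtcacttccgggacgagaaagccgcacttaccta
5530601H04Rik: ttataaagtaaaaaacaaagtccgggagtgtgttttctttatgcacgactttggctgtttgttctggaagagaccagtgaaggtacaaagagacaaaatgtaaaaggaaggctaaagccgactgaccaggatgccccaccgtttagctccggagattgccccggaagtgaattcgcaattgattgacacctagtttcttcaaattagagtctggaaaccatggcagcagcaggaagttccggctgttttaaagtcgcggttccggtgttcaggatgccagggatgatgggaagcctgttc

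The match read AAGATGGC in both genes and began 16 bases after the start site in Eif2s3x and 28 bases after it in Kdm5c. It was present in 2 of the 7 windows, against 6.05% of 32851 promoters of all genes and 7.28% of 1223 X-linked promoters. The letters CCAAT were also in 2 of the 7 windows (Utp14a and Kdm5c), against 45.0% of X-linked promoters. The window of Ddx3x held 25 CpG dinucleotides, those of Eif2s3x, Kdm6a and Utp14a 21 each, that of Pbdc1 20, that of Kdm5c 13 and that of 5530601H04Rik 11, beside an X-linked median of 7. A match describes the letters of the window and does not show binding.

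The stage series asks when and where the paternal X falls silent. Among the escape genes, the median paternal share at the 8-cell stage was 49.1%. In morulae it was 43.6%, in inner cell mass 31.9% and in trophectoderm 17.6%. At E6.5 the epiblast had a median of 44.3%, the visceral endoderm 14.6% and the extraembryonic ectoderm 20.7%. The median over all measured X-linked genes was 42.6%, 26.1%, 8.33%, 4.42%, 47.8%, 0.606% and 4.78% in the same order. The escape genes thus stood above the chromosome in each silenced tissue, but their own share was also lower there than in 8-cell embryos and epiblast. In epiblast only 3 of the 8 were above the X-linked median. All 8 were above it in both E3.5 tissues, in visceral endoderm and in extraembryonic ectoderm.

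A share of at least 10% was reached by 8 of 8 escape genes in 8-cell embryos (90% of 259 X-linked genes), morulae (77.7% of 251), inner cell mass (48.7% of 271), trophectoderm (38.1% of 273) and epiblast (97% of 305). In visceral endoderm it was reached by 6 of 8, against 8.12% of 320 X-linked genes, and in extraembryonic ectoderm by 6 of 8, against 26.5% of 347. The counts in 8-cell embryos and epiblast are near the background. The exceptions in both E6.5 tissues were Pbdc1 and Usp9x. At 20% or more, Eif2s3x alone was left in visceral endoderm (1 of 8, against 2.81% of X-linked genes) and 4 of 8 in trophectoderm (17.9%). That share was reached by 5 of 8 in extraembryonic ectoderm (12.4%), 6 of 8 in inner cell mass (30.6%), and 8 of 8 in 8-cell embryos (82.6%), morulae (61%) and epiblast (95.4%). Yolk sac was sparse: 5 of the genes reached 1 FPKM and 2 of these had 10% or more, against 11% of 145 X-linked genes, and 1 had 20% or more, against 9.66%. There Kdm6a had 50% and Ddx3x 18.5%, Kdm5c, 5530601H04Rik and Usp9x had no paternal FPKM, and Eif2s3x, Utp14a and Pbdc1 were listed at 0 for both alleles. The yolk sac is not read further.

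**Figure D1:**
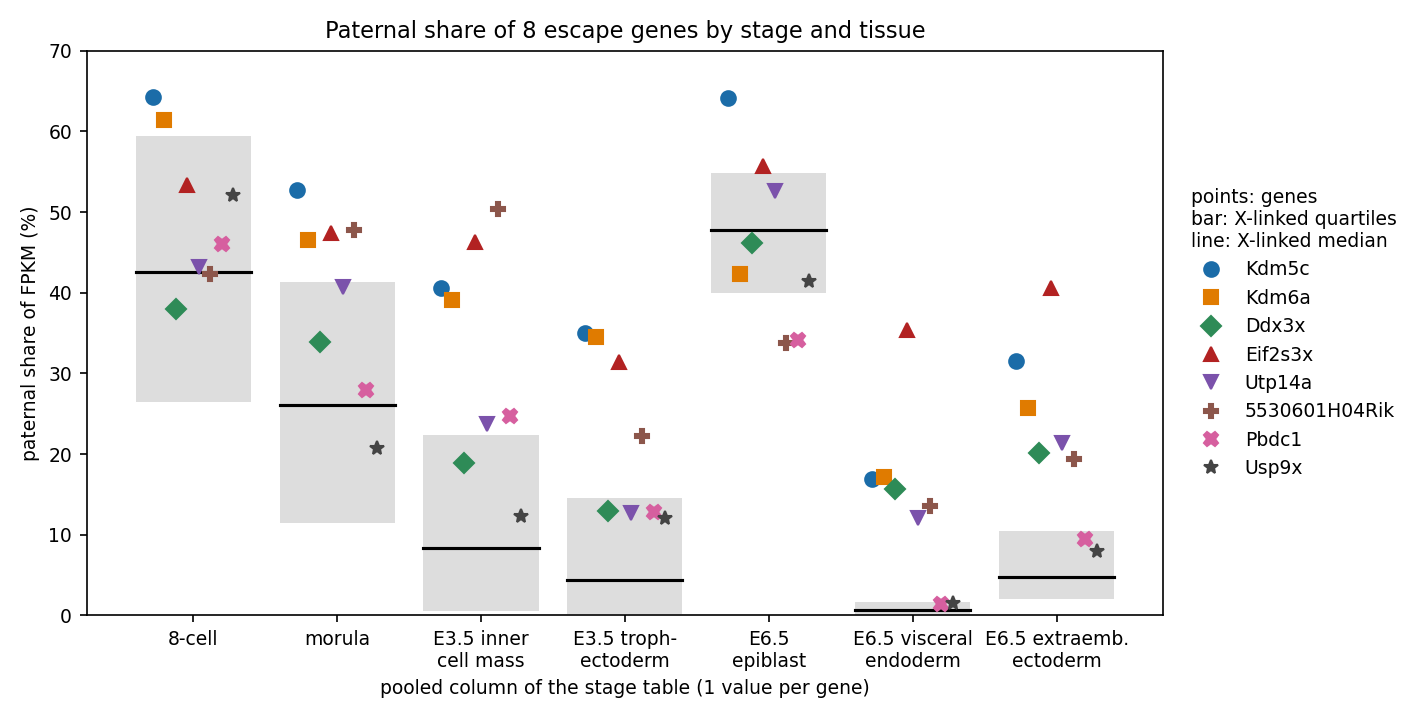
Paternal share (percent of FPKM, vertical axis) of the 8 escape genes in 7 pooled columns of the stage series (horizontal axis), each point 1 gene. Grey bars span the quartiles and black lines mark the median of all measured X-linked genes; in visceral endoderm 6 genes lie between 12.1% and 35.4%, above the X-linked median of 0.606%, and Pbdc1 and Usp9x lie at 1.40% and 1.56%.

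The translation and RNA helicase genes differed from each other. Eif2s3x, which encodes the gamma subunit of initiation factor eIF2, had paternal shares of 53.3%, 47.4%, 46.2%, 31.4%, 55.7%, 35.4% and 40.6% from 8-cell embryos through extraembryonic ectoderm, in the order above. It was never below 31.4%, and it ranked 4 of 320 X-linked genes in visceral endoderm and 11 of 347 in extraembryonic ectoderm. Its paternal level was 13.4 FPKM in visceral endoderm, where its maternal level was 24.5 FPKM, and 43.7 FPKM in extraembryonic ectoderm, where its maternal level was 63.8 FPKM. Ddx3x, a DEAD-box RNA helicase gene, had 38.0%, 33.9%, 18.9%, 13%, 46.2%, 15.6% and 20.2%. Its paternal level was 56.9 FPKM in morulae, 11 FPKM in trophectoderm and 17.9 FPKM in visceral endoderm, while its maternal level was 111, 73.8 and 96.6 FPKM in those columns. In both genes the paternal share and the paternal level were lower in trophectoderm than in inner cell mass.

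The histone demethylase genes had the highest shares of the list at the 8-cell stage. Kdm5c, whose product removes methyl groups from histone H3K4, had shares of 64.2%, 52.8%, 40.5%, 35.0%, 64.2%, 16.9% and 31.5% over the 7 columns. Kdm6a, whose product removes them from H3K27, the mark that PRC2 sets, had 61.4%, 46.6%, 39.1%, 34.4%, 42.3%, 17.2% and 25.7%. Both were weakly expressed. Over the 7 columns the paternal level of Kdm5c lay between 1.23 FPKM in visceral endoderm and 4.10 FPKM in 8-cell embryos, and that of Kdm6a between 1.28 FPKM in visceral endoderm and 5.28 FPKM in morulae. In visceral endoderm they ranked 12 and 11 of 320 X-linked genes.

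Utp14a, whose product belongs to the machinery that matures the small ribosomal subunit, had shares of 43.2%, 40.7%, 23.8%, 12.7%, 52.6%, 12.1% and 21.3%. Its paternal level was 19.0 FPKM in morulae, 7.28 FPKM in inner cell mass, 1.91 FPKM in trophectoderm and 1.67 FPKM in visceral endoderm. 5530601H04Rik, a long noncoding RNA gene, had 42.3%, 47.8%, 50.4%, 22.2%, 33.7%, 13.6% and 19.4%, at totals of only 1.59 to 3.54 FPKM. The antisense and overlapping transcripts of a noncoding gene cannot be separated in unstranded libraries.

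In the E6.5 extraembryonic tissues Pbdc1 and Usp9x came closest to the X-linked median. In inner cell mass Ddx3x and Utp14a lay below Pbdc1, and in trophectoderm Utp14a had 12.7% and Pbdc1 12.8%. Pbdc1, the most strongly expressed of the 8 at the 8-cell stage, had shares of 46.1%, 27.9%, 24.7%, 12.8%, 34.1%, 1.40% and 9.43%. Its paternal level was 91.9 FPKM in 8-cell embryos, 28.4 FPKM in morulae, 13.5 FPKM in inner cell mass, 4.19 FPKM in trophectoderm, 0.37 FPKM in visceral endoderm and 7.18 FPKM in extraembryonic ectoderm. Its maternal level in visceral endoderm was 26.2 FPKM. Usp9x, which encodes a deubiquitinase, had shares of 52.1%, 20.8%, 12.3%, 12.1%, 41.5%, 1.56% and 8.00%. Over the 7 columns its maternal level was highest in visceral endoderm, at 13 FPKM, where its paternal level was 0.21 FPKM. In visceral endoderm Usp9x ranked 89 and Pbdc1 98 of 320 X-linked genes, and in extraembryonic ectoderm they ranked 113 and 98 of 347. Pbdc1 and 5530601H04Rik, which are neighbours on the chromosome, had 1.40% and 13.6% in visceral endoderm.

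**Figure D2:**
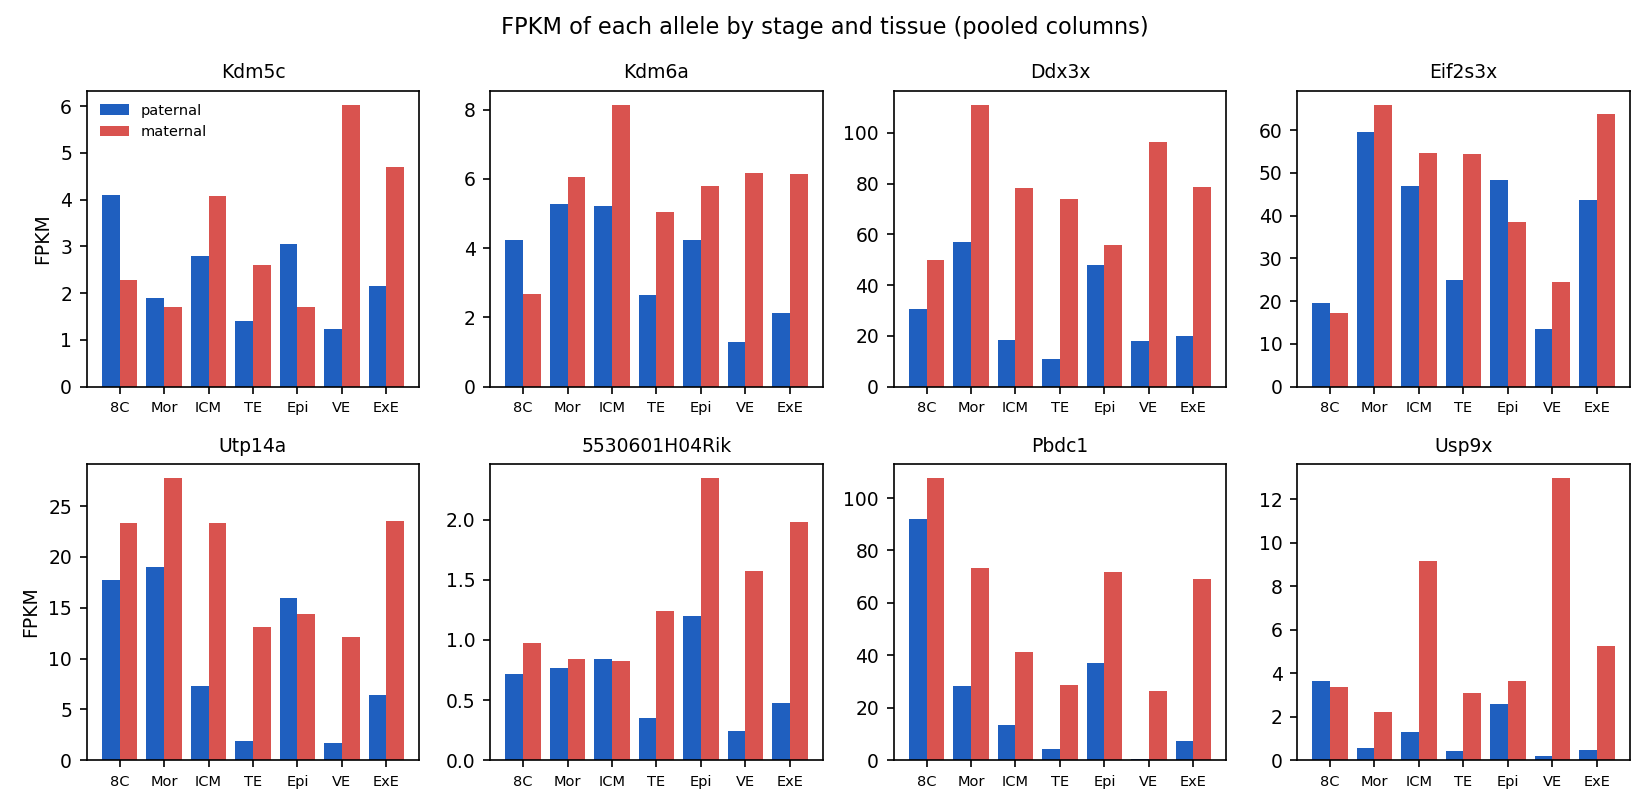
FPKM of the paternal (blue) and maternal (red) allele of each escape gene in the 7 pooled columns (8C, 8-cell; Mor, morula; ICM, inner cell mass; TE, trophectoderm; Epi, epiblast; VE, visceral endoderm; ExE, extraembryonic ectoderm), on a linear axis from 0 that differs between panels. In visceral endoderm the paternal bar of Eif2s3x stands at 13.4 FPKM beside 24.5 FPKM, and those of Pbdc1 and Usp9x, at 0.37 and 0.21 FPKM, are barely visible.

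A list of 14 other genes reported to escape was set beside these 8; it left out older names of Pbdc1 and Kdm5c. Of them 11 are listed in the tables, and in extraembryonic ectoderm 4 reached 1 FPKM. Syap1 had a paternal share of 6.31% there, 1810030O07Rik 6.58% and Tmem29 8.88%, and Xist, the RNA of the silenced X itself, had 89.8%. Of 4 X-linked genes taken as subject to silencing, Huwe1 had 11.6%, Pgk1 11.8%, Smc1a 9.01% and Hprt 2.41% in extraembryonic ectoderm, and the highest in visceral endoderm was Huwe1 at 1.70%. At E3.5 Huwe1 had 31.6% in inner cell mass and 29.1% in trophectoderm, where 5 of the 8 escape genes were lower, and 1810030O07Rik had 42.6% in trophectoderm, above all 8. The 5 Y-linked relatives (Kdm5d, Uty, Ddx3y, Eif2s3y and Usp9y) were listed at 0 in every column, control male morulae included. How Y-linked reads were assigned is not given, so these zeros do not show whether the genes were expressed. Over the 7 columns and 160 candidate genes, the profiles nearest to the median of the 8 were those of Timm17b, with a root mean square difference of 3.68 points, Ftsj1 (5.96), Nkap (6.39), Idh3g (6.90) and Naa10 (7.24). Utp14a was nearest to that median among the 8 themselves, at 5.47 points, and Eif2s3x farthest, at 14.1 points.

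The Xp XRRa KO morulae ask what loss of this paternal X region does to paternal expression. Of the 8 escape genes, 7 could be compared, and the paternal share of all 7 was higher in Xp XRRa KO females than in control females, as it was for 88.4% of 242 X-linked genes. The median difference was 15.6 points for the escape genes, against 20.8 points over the X-linked genes. The largest were in Pbdc1 and Usp9x. All of these are differences between 2 pooled columns, with no replicate check.

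Pbdc1 had a share of 38.8% in Xp XRRa KO females, 6.14% in control females and 0% in control males. Its paternal level was 31.1 FPKM in Xp XRRa KO females and 5.38 FPKM in control females, and its maternal level was 49.0 FPKM in Xp XRRa KO females and 82.3 FPKM in control females. The sum of both alleles was 80.0 FPKM in Xp XRRa KO females and 87.7 FPKM in control females. Usp9x had 47.5% in Xp XRRa KO females, 20.7% in control females and 0.84% in control males, and its paternal level was 2.94 FPKM in Xp XRRa KO females and 0.76 FPKM in control females. Kdm5c had 63.3% in Xp XRRa KO females and 38.3% in control females. Kdm6a had 43.0% in Xp XRRa KO females and 27.5% in control females.

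The smallest differences were in Ddx3x, Utp14a and Eif2s3x. Ddx3x had 47.7% in Xp XRRa KO females and 34.2% in control females, a difference of 13.4 points. Utp14a had 54.6% in Xp XRRa KO females and 45.4% in control females, a difference of 9.23 points. Eif2s3x had 55.1% in Xp XRRa KO females and 47.7% in control females, a difference of 7.37 points. The paternal level of Eif2s3x was 53.0 FPKM in Xp XRRa KO females and 29.4 FPKM in control females, and its maternal level was 43.2 FPKM in Xp XRRa KO females and 32.2 FPKM in control females. 5530601H04Rik had 55.6% in Xp XRRa KO females, and in control females its sum was 0.81 FPKM, below the minimum for a share.

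Counted at 10% or more, the escape genes numbered 8 of 8 in Xp XRRa KO females (98.6% of 280 X-linked genes), 6 of 7 in control females (83% of 259) and 0 of 8 in control males (1.55% of 258). The males have a single, maternal X, and their highest share among the 8 was 0.84%, in Usp9x, which gives the background of allele assignment for these genes.

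By size, a change was counted where a gene had at least 5 FPKM in 1 of the columns and differed at least 2-fold on FPKM plus 1. Of 4 escape genes at that level, 1 was 2-fold higher from the paternal allele, Pbdc1 (log2 ratio 2.33), against 46.8% of 141 X-linked genes, and none was lower, against 2.84%. The median paternal change was 1.82-fold in these 4 and 1.90-fold over the X-linked genes. The other escape genes were under 5 FPKM from the paternal allele and not counted. Their paternal log2 ratios were 1.30 in Kdm6a, 1.16 in Usp9x, 0.77 in Kdm5c and 0.57 in 5530601H04Rik. From the maternal allele, 0 of 5 were higher (5.22% of 134 X-linked genes) and 0 of 5 lower (17.2%), with Pbdc1 the lowest at a log2 ratio of -0.74. For the sum of alleles, 1 of 6 was higher, Kdm6a (log2 ratio 1.02), against 15.1% of 186 X-linked genes, and none was lower, against 1.08%.

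These differences depend on the control column. With the wild-type morulae of the stage series as reference, which were normalized separately, 7 of 8 escape genes still had a higher share in Xp XRRa KO females (91% of 234 X-linked genes), but Kdm6a was lower by 3.52 points (43.0% in Xp XRRa KO females and 46.6% in those morulae). Pbdc1, with 27.9% in the wild-type morulae, differed by 10.9 points and Kdm5c, with 52.8%, by 10.5 points, while Usp9x differed by 26.7 points. The controls also differed in Xist, with a paternal share of 68.0% in control females (maternal level 9.15 FPKM) and 99.5% in the wild-type morulae (0.11 FPKM). In Xp XRRa KO females that share was 23.2%.

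**Figure D3:**
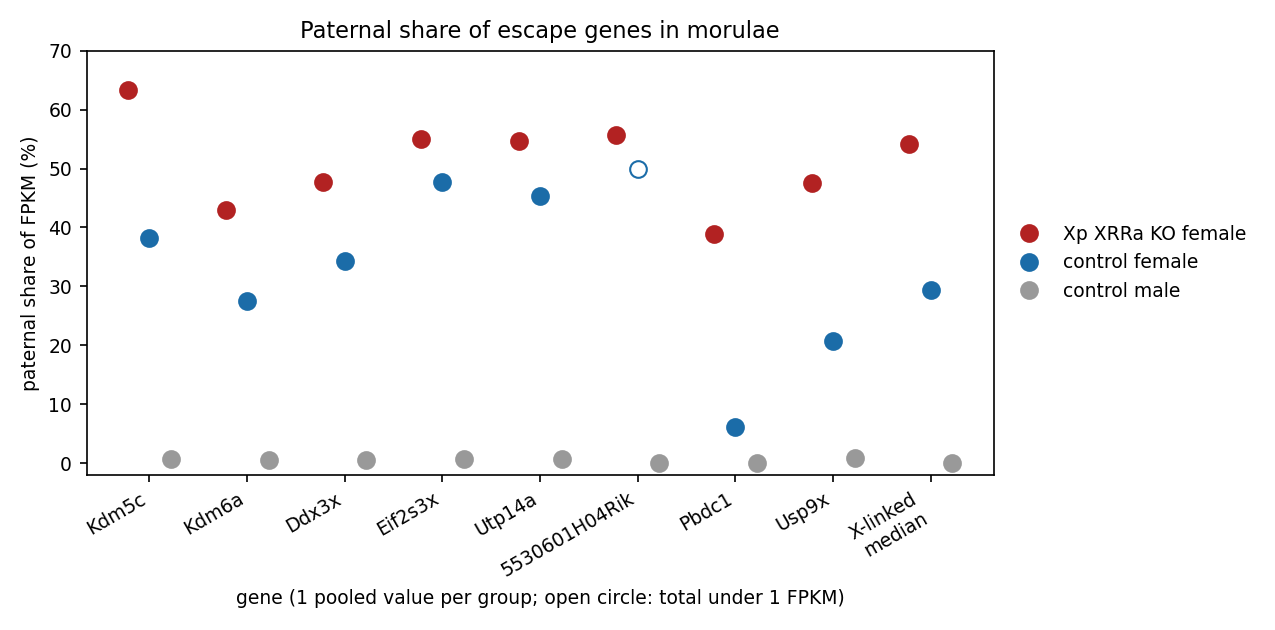
Paternal share (percent of FPKM) of each escape gene and of the X-linked median in morulae, 1 pooled value per group: Xp XRRa KO females (red), control females (blue) and control males (grey); the open circle has a sum under 1 FPKM. Red lies above blue for each gene, by 32.7 points in Pbdc1 and 7.37 points in Eif2s3x, and the grey points lie at 0.84% or less.

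The EedmNull embryos ask how paternal X silencing fares without maternal Eed, and they are the samples with a value per embryo. They differed widely: the X-linked median share was lowest at 0% in embryo 4, had a median of 37.2% over the 13 embryos and was highest at 80.5% in embryo 13. The escape genes spanned less. The median share of the 8 was lowest at 13.7% in embryo 1, where the X-linked median was 0.21%, and highest at 64.3% in embryo 13. All 8 lay above the X-linked median in embryo 4, 7 of 8 did in embryo 1, and 0 of 8 did in embryo 13. No escape gene lay above the X-linked median in all 13 embryos, as 1.34% of 224 X-linked genes did. In embryos 8, 11, 12 and 13 that median was 55.6%, 62.2%, 53.0% and 80.5%, on the paternal side of equal alleles. There a gene nearer to equal alleles lies below the median, and in the other embryos above it. A count over all embryos pools both sides, so it does not measure escape. P-values below measure the spread between these embryos, for which the labels name no litters.

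The paternal share of Eif2s3x was lowest at 34.5%, had a median of 49.0% and was highest at 67.2%, with a mean of 48.4% ± 10.7 (SD, n = 13). That of Kdm5c was 20.5%, 45.1% and 67.5% in the same order (mean 43.5% ± 16), and that of Utp14a was 11.6%, 49.2% and 76.9% (mean 42.8% ± 20.5). Kdm6a had 18.3%, 44.4% and 58.6% (mean 41.8% ± 14.3). All 4 had their lowest share in embryo 1, and all but Kdm6a had their highest in embryo 13.

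Ddx3x had a lowest share of 14.1%, a median of 40.1% and a highest share of 70.1% (mean 39.3% ± 17.2), and 5530601H04Rik had 10.2%, 35.0% and 75.8% (mean 35.0% ± 21.6). Usp9x had 0%, 29.2% and 61.5% (mean 27.0% ± 20.1). Pbdc1 had 2.30%, 14.0% and 30.5% (mean 15.8% ± 10.2). A share of at least 10% was reached in 13 of 13 embryos by 6 of the genes, in 9 by Usp9x and in 8 by Pbdc1. Of 224 X-linked genes, 7.59% reached it in all 13. Within an embryo, 14.3% to 99.6% of X-linked genes reached it, and of the genes taken as subject to silencing Huwe1 did in 11 embryos and Smc1a, Hprt and Pgk1 in 9 each. No neighbours in this order of means differed by more than the SD of their difference over embryos. The widest step, Usp9x over Pbdc1, was 11.3 ± 11.8 points (higher in 10 of 13 embryos). That SD is the spread between embryos and not the error of a mean difference, and the steps were not tested.

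**Figure D4:**
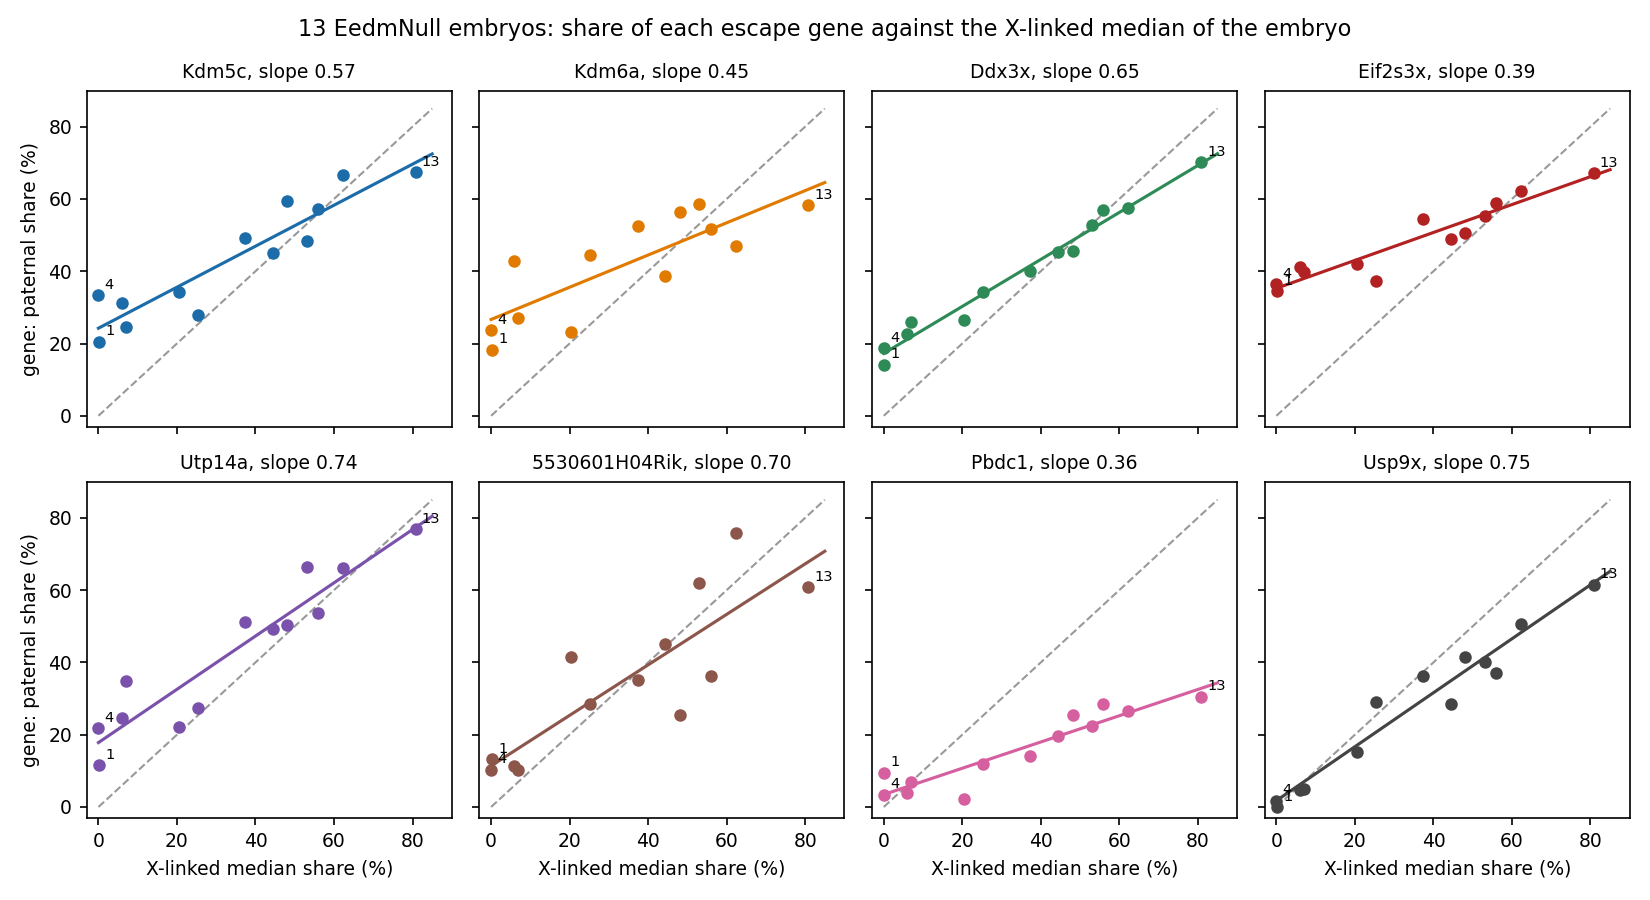
Paternal share of each escape gene (percent, vertical axis) against the median share of other X-linked genes (percent, horizontal axis) in the 13 EedmNull embryos, each point 1 embryo, with the fitted line and, dashed, the line of equal shares. Embryos 1, 4 and 13 are numbered; Eif2s3x lies between 34.5% and 67.2%, and Pbdc1 stays at or below 30.5% while the median of the other X-linked genes reaches 80.8%.

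Pbdc1 was maternal-biased in embryos whose X chromosome was otherwise not. In embryo 13 its share of 30.5% ranked 281 of 282 X-linked genes, and in embryo 1 its share of 9.52% ranked 45 of 280. Its maternal level stayed within 51.7 to 77.4 FPKM (median 59.7 FPKM), while its paternal level was 1.48 FPKM at the lowest and 23.5 FPKM at the highest. Ddx3x did otherwise, with maternal levels from 17.9 FPKM in embryo 13 to 58.4 FPKM in embryo 1 and paternal levels from 9.62 FPKM in embryo 1 to 46.3 FPKM in embryo 8.

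The log2 ratio of paternal to maternal FPKM plus 1, less the embryo's X-linked median of that ratio, was tested with limma over 300 X-linked genes, with Benjamini-Hochberg adjustment. With 1 FPKM added to each allele, this ratio also depends on the level of a gene. Tmem29, with a median total of 1.41 FPKM, had an estimate of 0.42, and Pgk1, at 503 FPKM, had -0.92, and neither passed. Their shares lay on average 0.71 and 1.94 points above the X-linked median. The part of level in the estimates below was not tested. These estimates also pool embryos whose X-linked median lay on either side of equal alleles, so they do not measure escape. Pbdc1 was lower than the median by -1.86 (SE 0.22, adjusted p = 1.9e-05), and 10.7% of the genes were lower. Eif2s3x was higher by 0.67 (SE 0.22, adjusted p = 0.039) and Kdm5c by 0.53 (SE 0.18, adjusted p = 0.044), and 11% of the genes were higher. The remaining 5 did not pass, with estimates of 0.46 for Kdm6a, 0.38 for 5530601H04Rik, 0.34 for Utp14a, 0.08 for Ddx3x and -0.27 for Usp9x. With no filter the median subtracted was taken over more genes, which lowered the estimate of each escape gene by the same amount. The sign then turned for Kdm6a (-0.10), 5530601H04Rik (-0.18), Utp14a (-0.22) and Ddx3x (-0.48), and for the called Kdm5c (-0.030). A pseudocount of 5 turned it for Ddx3x (-0.26). The Pbdc1 call held without each embryo, whereas the calls of Eif2s3x and Kdm5c were both lost without embryo 1, 2, 3, 4, 5, 6 or 10 (Kdm5c also without embryo 9), with adjusted p up to 0.0899 and 0.105, and under a pseudocount of 0.1 (0.0530 and 0.0782) or 5 (0.174 and 0.0623) and with no filter (0.780 and 0.846). Usp9x passed as lower under a pseudocount of 0.1 (adjusted p = 0.039) and with no filter (adjusted p = 0.018). Without embryo 13 Kdm6a also passed (adjusted p = 0.029).

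Whether an escape gene follows the chromosome was tested by the slope of its allelic ratio on the X-linked median ratio of the embryo. All 8 had a positive slope past the limma threshold, as did 93% of 300 X-linked genes, and 0% had a negative one. The lowest slopes were those of 5530601H04Rik (0.35, SE 0.07, adjusted p = 4.0e-04) and Kdm6a (0.36, SE 0.07, adjusted p = 2.7e-04). The highest was that of Utp14a (0.88, SE 0.11). With 1 FPKM added to each allele, this slope also depends on the level of a gene. Tmem29 had 0.48 and Pgk1 2.22, against 0.98 and 1.0 for the slopes of the share described next. The part of level in the order of the 8 was not tested.

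The size of that response was set against the chromosome by the slope of the share itself on the X-linked median share, where 1 means point for point. This test was added after the values had been seen. Of the 8 escape genes, 7 had a slope below 1 past the limma threshold, against 17% of 224 X-linked genes, and none had one above 1, against 1.34%. The median slope was 0.61 for the 8 and 0.96 over all 224. Pbdc1 had 0.36 (SE 0.045, adjusted p = 3.9e-08), Eif2s3x 0.39 (SE 0.042, adjusted p = 2.8e-08), Kdm6a 0.45 (SE 0.095, adjusted p = 6.1e-04) and Kdm5c 0.57 (SE 0.077, adjusted p = 7.7e-04). Ddx3x had 0.65 (SE 0.035, adjusted p = 2.1e-06), Utp14a 0.74 (SE 0.076, adjusted p = 0.024) and Usp9x 0.75 (SE 0.062, adjusted p = 0.0097), and 5530601H04Rik did not pass at 0.70 (SE 0.13, adjusted p = 0.13).

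Low slopes came with different starting points. At the low end of the X-linked median, in embryos 1 and 4, Eif2s3x had 34.5% and 36.5%, while Pbdc1 had 9.52% and 3.41%. The 4 genes taken as subject to silencing did not pass: Huwe1 had a slope of 0.84, Hprt 0.88 and Smc1a 0.92, and that of Pgk1 was 1.0. The 5 other X-linked genes with shares nearest to the 8 in these embryos, picked by those shares, did pass below 1. Ercc6l had 0.55, Pqbp1 0.61, Bex4 0.63, Pim2 0.71 and Magt1 0.80. Of the 5 nearest in the stage series, Timm17b (0.65), Nkap (0.70) and Idh3g (0.78) passed, and Ftsj1 (0.86) and Naa10 (0.92) did not. Of the other reported escape genes at 1 FPKM in all embryos, 1810030O07Rik passed at 0.74 (adjusted p = 0.0089), and Syap1 at 0.92 and Tmem29 at 0.98 did not. The call of Utp14a was lost without embryo 3, 4, 5 or 13, with adjusted p up to 0.0792, and 5530601H04Rik passed without embryo 11 (adjusted p = 0.036). On the log2 ratio scale Ddx3x (0.86, adjusted p = 0.093), Utp14a (0.88, adjusted p = 0.36) and Pbdc1 (0.86, adjusted p = 0.42) did not pass, and 5530601H04Rik did (0.35, adjusted p = 5.4e-06). With genes and median limited to a mean total of at least 5 FPKM, those 3 passed below 1 by limma on that scale. Ddx3x then had 0.62 (adjusted p = 4.8e-05), Utp14a 0.63 (adjusted p = 0.0018) and Pbdc1 0.62 (adjusted p = 0.0092). Slopes on that scale also depend on the level of a gene, and 5530601H04Rik had a median total of 1.38 FPKM.

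**Figure D5:**
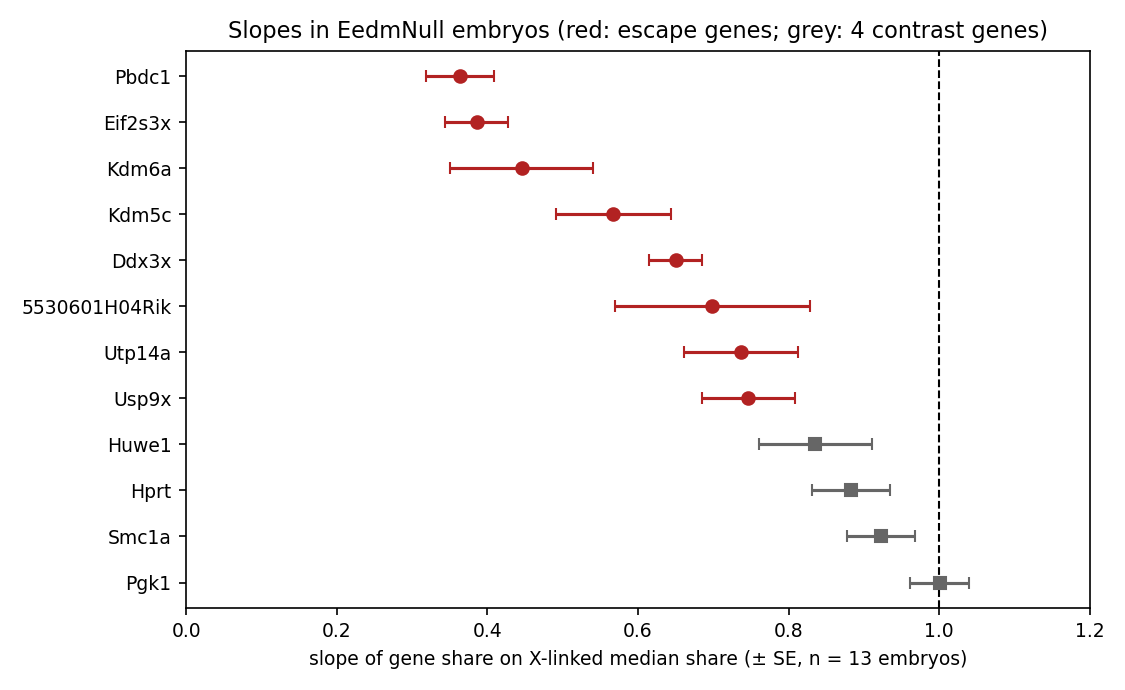
Slope of the paternal share of each gene on the median share of other X-linked genes over the 13 EedmNull embryos, with its SE; escape genes are red circles and 4 genes taken as subject to silencing grey squares, and the dashed line marks a slope of 1. Escape genes run from 0.36 (Pbdc1) to 0.75 (Usp9x), and the grey squares from 0.84 to 1.0.

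Each allele's level was also fitted on the X-linked median share, per 10 points, on the log2(FPKM + 1) scale, again after the values had been seen. The maternal level of 7 of the 8 genes was lower in embryos with a more paternal X (limma; 77.7% of 300 X-linked genes), from -0.16 for Ddx3x (adjusted p = 1.6e-04) to -0.08 for Kdm6a (adjusted p = 0.0069). For Pbdc1 it was -0.04 (adjusted p = 0.064), and it passed without embryo 4 (adjusted p = 0.034). The call of Eif2s3x (-0.09, adjusted p = 0.039) was lost without embryo 3, 4, 5, 7, 8 or 13, with adjusted p up to 0.268. The paternal level of 7 of the 8 was higher (88.3% of 300), most in Pbdc1 (0.38, adjusted p = 1.7e-04), Utp14a (0.29, adjusted p = 3.5e-05) and Ddx3x (0.25, adjusted p = 4.5e-05). Kdm6a did not pass (0.09, adjusted p = 0.056), but did without embryo 3, 6, 11 or 13, with adjusted p down to 0.0285. No escape gene and no other X-linked gene passed in the opposite direction for either allele.

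The summed level of both alleles was fitted the same way on the X-linked median ratio. By limma 0 of 300 X-linked genes passed in either direction (0% higher and 0% lower), with 27 at an unadjusted p under 0.05. Among those 27 was 1 escape gene, Utp14a (slope 0.11, SE 0.04, adjusted p = 0.36). Its total was 14.9 FPKM at the lowest, in embryo 1, and 24.3 FPKM at the highest, in embryo 13. The other 7 had slopes between -0.05 and 0.05.

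Markers of the sampled tissue varied between the EedmNull embryos. The summed FPKM of the X-linked trophoblast genes Plac1, Esx1, Rhox6 and Rhox9 was lowest at 25.9 in embryo 12 and highest at 243.6 in embryo 7. It was 218 in embryo 13, 83.6 in embryo 1 and 44.6 in embryo 4. Within this sum Rhox6 lay between 16.2 and 149.6 FPKM, while Esx1 was at 0 in 4 embryos and reached 2.43 FPKM. Of the markers of other cell types, the blood gene Gata1 lay between 8.59 and 27.8 FPKM and Alas2 was at 0 in 4 embryos. Of the stromal genes, Timp1 was present in every embryo, at 2.47 to 6.21 FPKM, Bgn reached 0.87 FPKM and was at 0 in 7, and Srpx was at 0 in all 13. The part of tissue makeup in the slopes was not tested. Over the 13 embryos and 216 candidate genes, the shares nearest to the median of the 8 were those of Ercc6l, with a root mean square difference of 5.32 points, Pqbp1 (5.51), Bex4 (6.55), Magt1 (6.71) and Pim2 (6.98).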

How the data were processed

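The deposited tables hold FPKM computed by the authors for each parental allele. Per the submitters' processing notes, the tools were Trim Galore 0.6.4, HISAT2 2.2.0 and StringTie 2.1.1, on mm9. How reads were assigned to alleles is not given in the sources used here. In the stage and morula tables the authors pooled replicates into 1 column per allele and group; the EedmNull table has 1 column per allele and embryo and lists X-linked genes alone. Tables were normalized separately, so levels were compared within a table, apart from the alternative morula control. 5 summary lines were left out.

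X-linked genes were the 1052 genes of the EedmNull table. Fits in EedmNull embryos used limma 3.58.1 (R 4.3.3) on log2(FPKM + 1) for genes with a mean total of at least 1 FPKM, or on the share for genes at 1 FPKM in all 13 embryos. Slopes used the median over X-linked genes other than the 8 and the other escape genes. P-values are two-sided, adjusted by the Benjamini-Hochberg method over all X-linked genes tested, at 0.05. A fold on the log2(FPKM + 1) scale understates the change of low genes. Procedures were tested on simulated data for genes with a mean total of at least 5 FPKM, with noise that did not depend on level. Kdm5c, Kdm6a, Usp9x and 5530601H04Rik average less than that, so the simulation does not cover genes at their level.

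The members and lists were chosen with earlier results of these data known. Named genes are the 8, the 5 nearest profiles in each of the stage series and the EedmNull embryos, 14 other reported escape genes, 5 Y-linked relatives and 4 contrast genes. Alternatives were other pseudocounts, filters, controls and share thresholds, and leaving out each embryo. Python 3.11.15, numpy 2.4.6, pandas 2.3.3 and matplotlib 3.10.9 were used for the rest.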

Additional observations from a re-analysis of the deposited data

How the results depend on the processing

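No paired analysis was possible because the stage and morula tables hold pooled columns and the EedmNull embryos are 1 group. Depth is unknown, and pooled columns have no error, so the stage and morula values limit what can be said to their size. The 8 escape genes are called members here.

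The count of X-linked genes above the embryo median ratio (33 in the report) was 18 with a pseudocount of 0.1, 12 with no filter, 18 at 5 FPKM or more and 1 uncentred. Members above it numbered 0 with a pseudocount of 0.1 or 5, with no filter and uncentred, and members below it 2 with a pseudocount of 0.1, with no filter and uncentred. Without each embryo in turn, 22 to 56 X-linked genes and 0 to 3 members were above it, the most without embryo 13. The sign turned for Ddx3x with a pseudocount of 5 (-0.26), and with no filter for Kdm5c (-0.030), Kdm6a (-0.10), Ddx3x (-0.48), Utp14a (-0.22) and 5530601H04Rik (-0.18). It also turned uncentred for Kdm5c (-0.23), Kdm6a (-0.31), Ddx3x (-0.69), Eif2s3x (-0.093), Utp14a (-0.42) and 5530601H04Rik (-0.39), which tests against equal alleles. A filter changes an estimate only through the median subtracted, by the same amount for each gene tested under both settings. For the pseudocounts the cause was not tested. The Pbdc1 call held under all of these. Usp9x also passed as lower uncentred (-1.03), and Utp14a as higher at 5 FPKM or more (0.65).

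The allelic slope had 1 X-linked gene below 0 with no filter, and 169 X-linked genes and 4 members above 0 at 5 FPKM or more, where fewer genes were tested. The summed level had 1 X-linked gene higher with the median share as covariate, and 0 to 1 higher and 0 to 1 lower without each embryo. Its slope for Ddx3x was 0.0015 at 5 FPKM or more. Without each embryo that slope ran from -0.017 to 0.031 for Ddx3x, from -0.040 to 0.025 for Kdm6a and from -0.047 to 0.0040 for 5530601H04Rik. Against a slope of 1, the log2 ratio gave 96 X-linked genes above and 99 below. At 5 FPKM or more it gave 47 above, with 4 members below, which were all the members tested there. For the share, 0 to 5 X-linked genes were above without each embryo.

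At a share of 20% or more, members numbered 4 in trophectoderm (17.9% of X-linked genes), 1 in visceral endoderm (2.81%) and 1 in yolk sac (9.66%). The yolk sac median was 18.5% at 5 FPKM or more and 15.9% as a ratio of sums. Against the stage-table morulae, Kdm6a was lower in Xp XRRa KO females by -3.52 points, and the median paternal log2 ratio of members at 5 FPKM was -0.10. So that median turned, but its set then also held Kdm6a, and it compares levels that were normalized separately. Of the remaining settings for counts and medians, 84 values were equal to the main value or within a fixed ratio of it.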
